A study of Danio rerio with 24 samples.

Results

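Zebrafish embryos kept in 2 µM TDCIPP were followed from 2 h post-fertilization (hpf), in cleavage, to 6 hpf, when untreated embryos reach early gastrula. TDCIPP, tris(1,3-dichloro-2-propyl) phosphate, is an organophosphate flame retardant. The 6 TDCIPP pools of the series, 3 collected at 2 hpf and 3 at 6 hpf, were chosen by their labels and not by any measured value, and they make up 12 of 24 arrays and 6 of 12 pools. The other 6 pools were embryos in the vehicle, 0.1% DMSO, collected at the same times. The TDCIPP stock was made in DMSO, but the labels do not give the DMSO content of the TDCIPP pools. All embryos were wildtype of the 5D strain, each pool held 25 of them, and exposure began at 0.75 hpf. Each pool's RNA was hybridized to 2 arrays (Zebrafish Gene 1.0 ST), which were averaged, so that 1 pool counted as 1 replicate (n = 3 at each time). The number of pools limits the precision, and the labels give the age in hours but not the stage that each pool had reached.

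In its first hours the zebrafish embryo divides rapidly on RNA and protein that the mother placed in the egg. During the maternal-to-zygotic transition (MZT) many of these maternal transcripts are degraded, and the embryo's own genome starts to be transcribed. Transcription factors from the egg, Pou5f3, Nanog and the SoxB1 protein Sox19b, are known to open the zygotic genome. By early gastrula the embryo has an outer epithelium, a yolk syncytial layer, a dorsal organizer and prospective mesoderm and endoderm. The comparison of 6 hpf (post-MZT) with 2 hpf (pre-MZT) therefore asks which transcripts were cleared and which appeared in exposed embryos.

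Values are log2 signals of transcript clusters, the unit of this array, and a log2 change is the mean at 6 hpf minus the mean at 2 hpf. A change was called at an adjusted p under 0.05 (limma, Benjamini-Hochberg over 61240 clusters, standard errors in parentheses). Array medians were 4.323 to 4.438 at 2 hpf and 4.472 to 4.539 at 6 hpf in TDCIPP pools. Signals of pools of the same time correlated at r = 0.993 to 0.9943 at 2 hpf and 0.9918 to 0.9923 at 6 hpf, against 0.9106 to 0.9202 between the 2 times, across clusters, which are not independent replicates. No array stood apart from its group by these measures. The ages were checked against markers: 7 of 9 maternal markers fell, and all 13 gastrula, 6 enveloping layer and 3 yolk syncytial layer markers rose. Of the germ cell markers, nanos3, dnd1 and dazl fell and ddx4 did not pass. Markers of later tissues, picked to be near background, did not pass except elavl3, which rose by 0.58 (adjusted p = 0.00391). Among them actc1b had a high signal for such a marker, 7.04 at 2 hpf and 7.24 at 6 hpf. In RNA from whole pools, fewer cells of a type and less RNA per cell cannot be told apart, and the table holds no call of detection, so that a low signal was not read as absence.

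The transcriptome of exposed embryos turned over widely between the 2 times. Of all clusters, 10740 were higher and 10714 lower at 6 hpf, which is 35.0% of those tested. At least a 2-fold change in addition was seen for 3849 clusters upward (6.29%) and 4184 downward (6.83%). The split depended on the scaling of the arrays. Centring each array on its median moved every change by -0.14 and gave 7493 higher and 14595 lower clusters, so that 33.9% of calls were upward in place of 50.1%. Quantile normalization once more gave 9501 and 12350, and centring on the 75th percentile gave 12012 and 10025.

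Genes with a symbol leaned downward in number. Each of 19298 named genes was represented by 1 cluster, and 2894 (15.0%) were higher and 5765 (29.9%) lower at 6 hpf, 44.9% in all. With the 2-fold rule, 1061 rose (5.50%) and 2386 fell (12.4%). The 3 pools at 6 hpf lay beyond all 3 pools at 2 hpf for 10476 genes (54.3%), upward in 3811 (19.7%) and downward in 6665 (34.5%). The median log2 change over all named genes was -0.06. With arrays centred on their medians, 2135 named genes were higher and 7249 lower, so that the upward share of calls went from 33.4% to 22.8%, and with the 75th percentile the counts were 3146 and 5453.

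Rises were fewer but larger. At 4-fold or more, 492 named genes rose and 405 fell, and at 8-fold or more 276 rose and 33 fell. At 16-fold or more, 144 rose and 0 fell, and 17 genes rose at least 64-fold. These classes were cut from the tested contrast itself and describe it without a further test. The median signal of the 1061 genes that rose 2-fold went from 4.88 to 7.53, and that of the 2386 that fell went from 8.01 to 6.40.

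**Figure D1:**
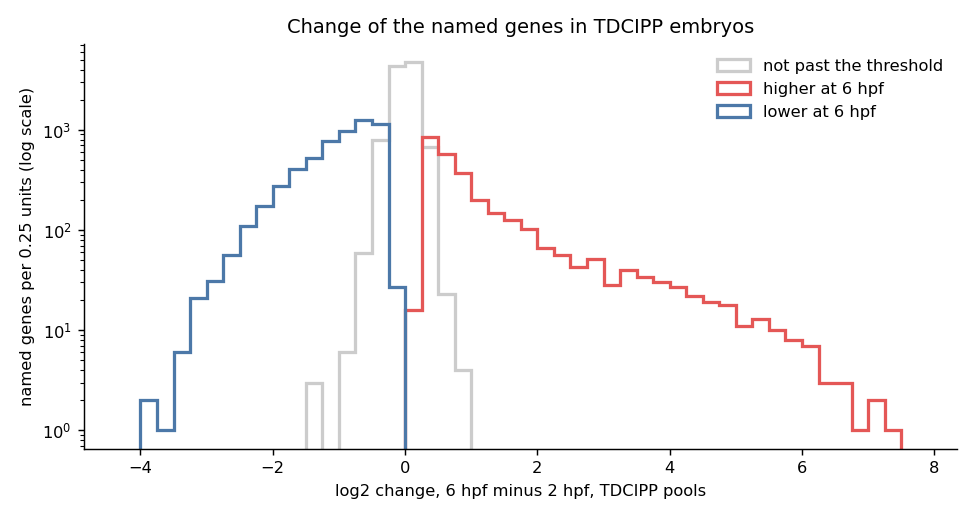
The number of named genes (log scale) in each 0.25 units of log2 change, 6 hpf minus 2 hpf, in the TDCIPP pools, with separate lines for genes that fell (blue), rose (red) or did not pass the test (grey). Falls end at -3.88, while the tail of rises runs to 7.36.

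The 12 named genes with the largest rises were led by tbx16, a T-box factor of mesoderm. Its log2 signals were 4.49, 3.95 and 4.36 in the pools at 2 hpf and 11.62, 11.66 and 11.59 at 6 hpf, a log2 change of 7.36 (0.22, adjusted p = 1.13e-11). The groups lay far apart, and the 6 hpf pools differed by less than the 2 hpf pools. Next came si:ch211-125o16.4 (7.12), krt4 (7.07), grhl3 (6.79), si:dkey-11o15.10 (6.73), krt18a.1 (6.64) and sb:cb81 (6.62). The rest were plekhn1 (6.49), stm (6.31), sult6b1 (6.27), klf17 (6.23) and foxa3 (6.14). Of these 12, krt4, grhl3, krt18a.1 and klf17 are genes of the enveloping layer, the outer epithelium. The gene stm encodes Starmaker, known from the otolith, where it shapes the mineral at a later stage than these pools.

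The 12 largest falls were led by trim35-29. The signal of this member of the TRIM family was 8.50, 8.44 and 8.37 at 2 hpf and 4.48, 4.83 and 4.37 at 6 hpf, and it fell by 3.88 on the log2 scale (0.18, adjusted p = 9.18e-10). LOC797855 fell by 3.80 and pld1a, a phospholipase D, by 3.60. The phosphoinositide phosphatases mtmr7a and ocrl fell by 3.50 and 3.22, and alg13, of protein glycosylation, fell by 3.48. A ubiquitin ligase that removes Wnt receptors from the cell surface, znrf3, fell by 3.42. The germ granule gene tdrd6b fell by 3.39, the membrane progestin receptor gene paqr5a by 3.25 and the mitochondrial folate enzyme gene mthfd2l by 3.25. The last were zgc:153345 (-3.34) and zgc:92591 (-3.26), and a second cluster of zgc:92591 did not pass (-0.25, adjusted p = 0.116).

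**Figure D2:**
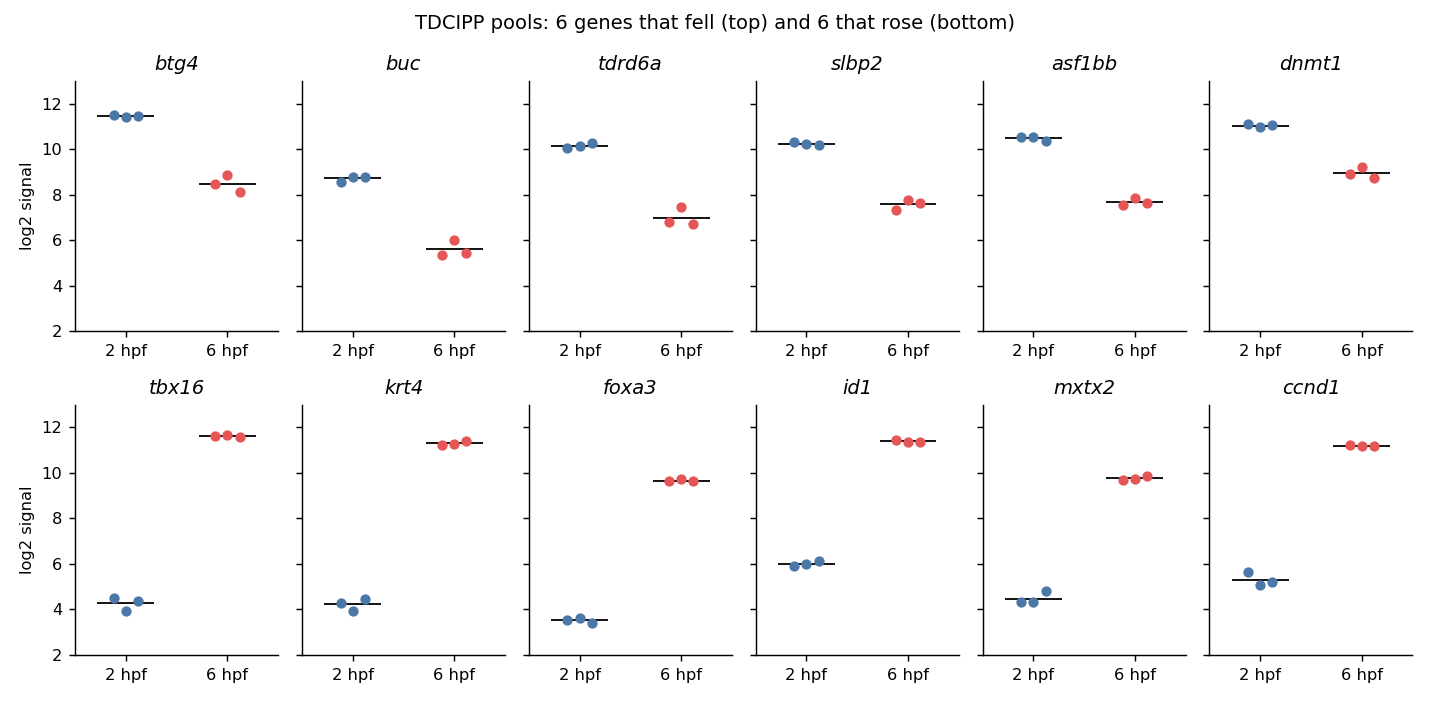
Log2 signals of single TDCIPP pools (points) at 2 hpf (blue) and 6 hpf (red) with the mean of 3 pools (line), for 6 genes that fell (top) and 6 that rose (bottom). In each gene the pools of the 2 times do not overlap. In the top row the spread is wider at 6 hpf than at 2 hpf, and the second pool is the highest at 6 hpf.

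The counts of each list are to be read beside those of all named genes, of which 15.0% were higher and 29.9% lower. Maternal transcripts are described first. Of 33 measured oocyte and egg genes, 25 fell and 3 rose, with a median log2 change of -1.10 against -0.06 over all named genes. Btg4, which brings the deadenylase to maternal mRNAs, had signals of 11.51, 11.40 and 11.45 at 2 hpf and 8.49, 8.85 and 8.10 at 6 hpf. It fell by 2.97 (0.16, adjusted p = 3.75e-09), a 7.84-fold drop, and its groups were separate. Bucky ball (buc), which organizes the germ plasm in the oocyte, went from 8.57, 8.80 and 8.79 to 5.37, 6.02 and 5.46 and fell by 3.10. The secreted oocyte factor bmp15 fell by 2.85 and slbp2, an egg form of the histone mRNA binding protein, by 2.66. In contrast, the signal of slbp was 9.97 ± 0.10 (SD) at 2 hpf and 9.83 ± 0.07 at 6 hpf (adjusted p = 0.264). The importin gene kpna7 fell by 2.34, the egg claudin cldnd by 2.08 and the nucleoplasmin npm2a by 1.96.

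A minority of oocyte genes did not follow. Cpeb1a, a regulator of translation, changed least (0.05, adjusted p = 0.798), and zar1 had signals of 7.57, 7.79 and 7.35 at 2 hpf and 7.28, 7.40 and 7.47 at 6 hpf, which overlapped (log2 change -0.19, adjusted p = 0.216). The 3 members that rose, named after their values were seen, were zp2.2 of the egg envelope (0.30), nanog (0.63) and ybx1 (1.39). For ybx1, an RNA-binding translational repressor, the pools went from 9.76, 9.58 and 9.58 to 11.03, 11.02 and 11.02. When arrays were centred on their medians, 2 members in place of 3 rose.

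Germ plasm and germ cell genes fell as well, 14 of 18, with 1 that rose and a median of -1.41. The signal of tdrd6a, a Tudor protein of germ granules, was 10.04, 10.15 and 10.26 at 2 hpf and 6.79, 7.44 and 6.73 at 6 hpf, a log2 change of -3.16 (0.17, adjusted p = 5.23e-09). Its other cluster fell by 3.04. The RNA-binding dazl fell by 2.16 and ca15b by 2.27, while nanos3 and dnd1, needed for germ cell survival, fell by 1.62 and 1.07. Not every germ cell transcript dropped. The helicase gene ddx4 (vasa) had pools of 9.04, 9.42 and 9.42 at 2 hpf and 8.99, 9.23 and 9.27 at 6 hpf, which overlapped (log2 change -0.13, adjusted p = 0.614). Likewise piwil1, of the piRNA pathway, did not pass (-0.25, adjusted p = 0.363). The chemokine receptor cxcr4b rose by 3.47 (adjusted p = 1.44e-08), and it guides migrating germ cells but is also used by somatic cells.

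Single pools stood a little above their group. Among the 1061 genes that rose 2-fold, the third TDCIPP pool had the highest 6 hpf signal in 532, the second in 362 and the first in 167, with median signals of 7.64, 7.58 and 7.47. Over all 19298 named genes the split was near even, with the third pool highest in 6406, the second in 6363 and the first in 6529. Among the 2386 genes that fell 2-fold, the second pool was highest in 1304, the first in 647 and the third in 435. Their median signals at 6 hpf were 6.37, 6.50 and 6.33 in the 3 TDCIPP pools and 6.38, 6.29 and 6.39 in the DMSO pools. Without the second pool at 6 hpf, 4312 clusters were lower 2-fold, against 4184 with it. Leaving out the third TDCIPP pool at 2 hpf moved this count further, to 4384.

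Of 51 genes that clear or bind mRNA, 23 fell (45.1%) and 13 rose (25.5%), against 29.9% and 15.0% of all named genes (median -0.28). Besides btg4, the falls included lsm1 of the decapping complex (-2.69), drosha, which cuts miRNA precursors (-2.39), and the deadenylase gene cnot7 (-1.86). The dicer1 gene, whose product makes mature miRNAs, fell by 1.32. Rises included the mRNA-stabilizing igf2bp1, from 8.52, 8.12 and 7.56 to 9.90, 10.06 and 9.94 (1.90, adjusted p = 1.98e-05), and elavl1a (1.07). The mRNA-destabilizing zinc finger family split, since zfp36l2 fell by 2.15 and zfp36l1a by 1.02 while zfp36l1b rose by 1.75. The zfp36l1b pools at 6 hpf were uneven (SD 0.87). The scaffold cnot1 rose by 0.51, and igf2bp3 changed least (0.02). No cluster carries the symbol of miR-430, the miRNA known to clear maternal transcripts.

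The 12 measured activators of the zygotic genome all passed the test, 7 upward and 5 downward (median 0.58). Of the egg factors, pou5f3 rose from 10.92, 10.65 and 10.67 to 11.53, 11.55 and 11.62 (0.82, adjusted p = 2.13e-05) and nanog rose by 0.63. Sox19b, the maternal SoxB1 gene, fell from 9.62, 9.50 and 9.47 to 8.10, 8.40 and 8.14 (-1.32, adjusted p = 2.2e-07), and its other cluster fell by 1.49. Its relatives went the other way. Sox19a rose from 4.28, 4.46 and 4.25 to 9.81, 9.74 and 9.81, a 43.9-fold change (adjusted p = 2.91e-13). Sox3 rose 12.5-fold, and sox2, with a mean of 4.55 ± 0.20 at 2 hpf and 6.05 ± 0.48 at 6 hpf, rose by 1.50. The remaining falls were of taf1 and tbp, of the basal transcription machinery, the T-box gene eomesa and the acetyltransferase gene ep300a, by 0.43 to 0.78.

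**Figure D3:**
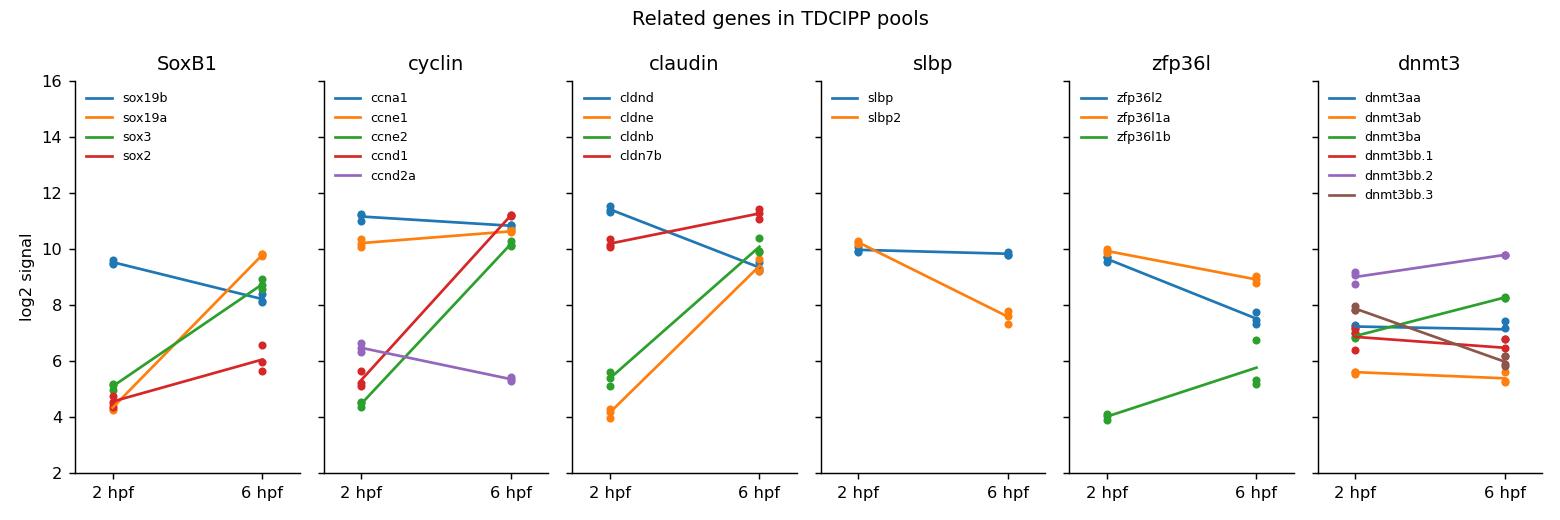
Log2 signals of TDCIPP pools (points) and their means (lines) at 2 and 6 hpf for families in which members differ. The families were picked after their values were seen, and since signals of different genes depend on their probes, only the slope of each line is to be read: sox19b falls while sox19a, sox3 and sox2 rise, and cldnd falls while cldne and cldnb rise.

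Genes of the enveloping layer had the highest median of the 22 lists, 1.94. Of 32, 24 rose, 21 of them at least 2-fold, and 1 fell. The keratin gene krt4 rose from 4.30, 3.92 and 4.47 to 11.21, 11.28 and 11.40, a 134-fold change (adjusted p = 6.97e-13). Grhl3, a Grainyhead factor of surface epithelium, rose from 4.15, 4.09 and 4.16 to 10.90, 10.71 and 11.15. The pools of the 2 times did not overlap for either gene. Keratins krt5 (5.27), krt8 (5.61) and krt92 (5.94) rose too, as did the tight junction genes cldne (5.24) and cldnb (4.71) and the desmosomal evpla (5.63). The E-cadherin gene cdh1 went from 10.90, 10.57 and 10.69 to 11.18, 11.26 and 11.28 (0.52), and cldn7b rose by 1.08, both from a high signal at 2 hpf. The exception that fell was tp63 (-1.07), the factor of the underlying epidermis. The least change was that of krt15 (0.08, not past the threshold).

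Mesendoderm genes, which respond to Nodal ligands, rose in 24 of 35 cases and fell in 3 (median 1.46). Of the ligands, ndr2 rose from 5.11, 5.32 and 5.50 to 8.78, 9.07 and 9.44 (3.79) and ndr1 by 1.60. The feedback inhibitors lft1 and lft2 rose by 2.90 and 2.96. Ligands and inhibitors thus moved in the same direction. Beside tbx16, the mesoderm factor tbxta (no tail) rose from 4.93, 5.01 and 5.29 to 10.43, 10.68 and 10.62, and the endoderm factor sox32 from 4.24, 4.82 and 4.31 to 9.80, 9.90 and 9.60. The apelin receptor gene aplnra rose by 5.89 and vgll4l by 5.55. Another cluster of aplnra rose by 3.55. Downstream of sox32, sox17 had risen by 0.98. The transducers smad2 (-0.67) and smad3b (-0.64) and the activin receptor gene acvr2aa (-1.18) fell, and foxa1 changed least (0.02).

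Among dorsal organizer genes, 16 of 23 rose, each at least 2-fold, and 1 fell, with a median of 1.64. The forkhead gene foxa3 rose from 3.54, 3.61 and 3.42 to 9.65, 9.72 and 9.63, and noto, of the notochord, from 3.80, 3.77 and 4.00 to 9.94, 9.86 and 10.08. Chordin (chrd), a secreted BMP antagonist, rose from 5.01, 4.74 and 4.86 to 10.35, 10.07 and 10.53 (5.45, adjusted p = 1.04e-12). The pools of the 2 times lay far apart for these 3 genes, with standard errors of 0.10 to 0.12. The organizer ligand admp rose by 4.57, sebox by 4.22 and goosecoid (gsc) by 3.51. Dharma, an early inducer of the organizer, rose by 1.11. The gene that fell was otx1 (-0.64), and fsta changed least (0.03).

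Ventral and BMP pathway genes rose in 21 of 33 cases and fell in 5, with a median of 1.49. The ligand genes bmp2b and bmp7a rose by 4.17 and 3.34, and bmp4 rose from 4.67, 4.43 and 4.45 to 5.65, 6.32 and 6.04 (1.49, adjusted p = 0.000368). Id1, a BMP target gene, rose from 5.90, 5.99 and 6.14 to 11.46, 11.34 and 11.37, a 41.7-fold change, and gata3 rose by 5.33. The ventral repressors vox and vent rose by 4.98 and 3.45, and foxi1, of the ventral ectoderm, by 4.54. The inhibitory pseudoreceptor bambia rose by 3.84. The transducer smad5 rose by 0.39, while the receptor genes bmpr1aa (-0.36) and bmpr1ab (-0.43) fell. The other falls, named after their values were seen, were id2a (-1.76), gdf6a (-1.12) and tp63. The transducer gene smad1 (0.05) and the homeobox gene msx3 (-0.05), which changed least, did not pass.

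FGF pathway genes rose in 16 of 25 cases and fell in 1 (median 0.82). The receptor fgfr4 rose from 4.62, 4.31 and 4.39 to 9.26, 9.45 and 9.53 (4.97, adjusted p = 2.4e-11). The ligands fgf17, fgf3 and fgf8a rose by 3.92, 3.83 and 2.16, and the feedback phosphatase dusp6 rose by 4.75 (2.81 in its other cluster). The transcription factor etv5a, a pathway target, was the gene that fell (-0.93), whereas its relative etv4 rose by 1.82. Il17rd changed least (0.01).

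Wnt pathway genes rose in 18 of 32 cases and fell in 4 (median 0.63). The noncanonical ligand wnt11f2 rose from 4.94, 4.69 and 4.43 to 9.17, 9.20 and 9.52 (4.61), and wnt11 did not (-0.01, not past the threshold). The receptor fzd7a rose by 4.38 and notum1a, a secreted inhibitor, by 4.14. Dact1 and dact2, which modulate signalling inside the cell, rose by 3.57 and 2.86. Axin2, a common target gene, had overlapping pools of 7.82, 7.93 and 7.82 at 2 hpf and 7.79, 7.96 and 8.01 at 6 hpf (0.07, adjusted p = 0.759). The planar polarity gene vangl2 rose by 3.28 in 1 cluster and 0.62 in another, so that its size is uncertain. The falls were of axin1, lef1, tcf7l1b and dvl3a, by 0.40 to 0.65.

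**Figure D4:**
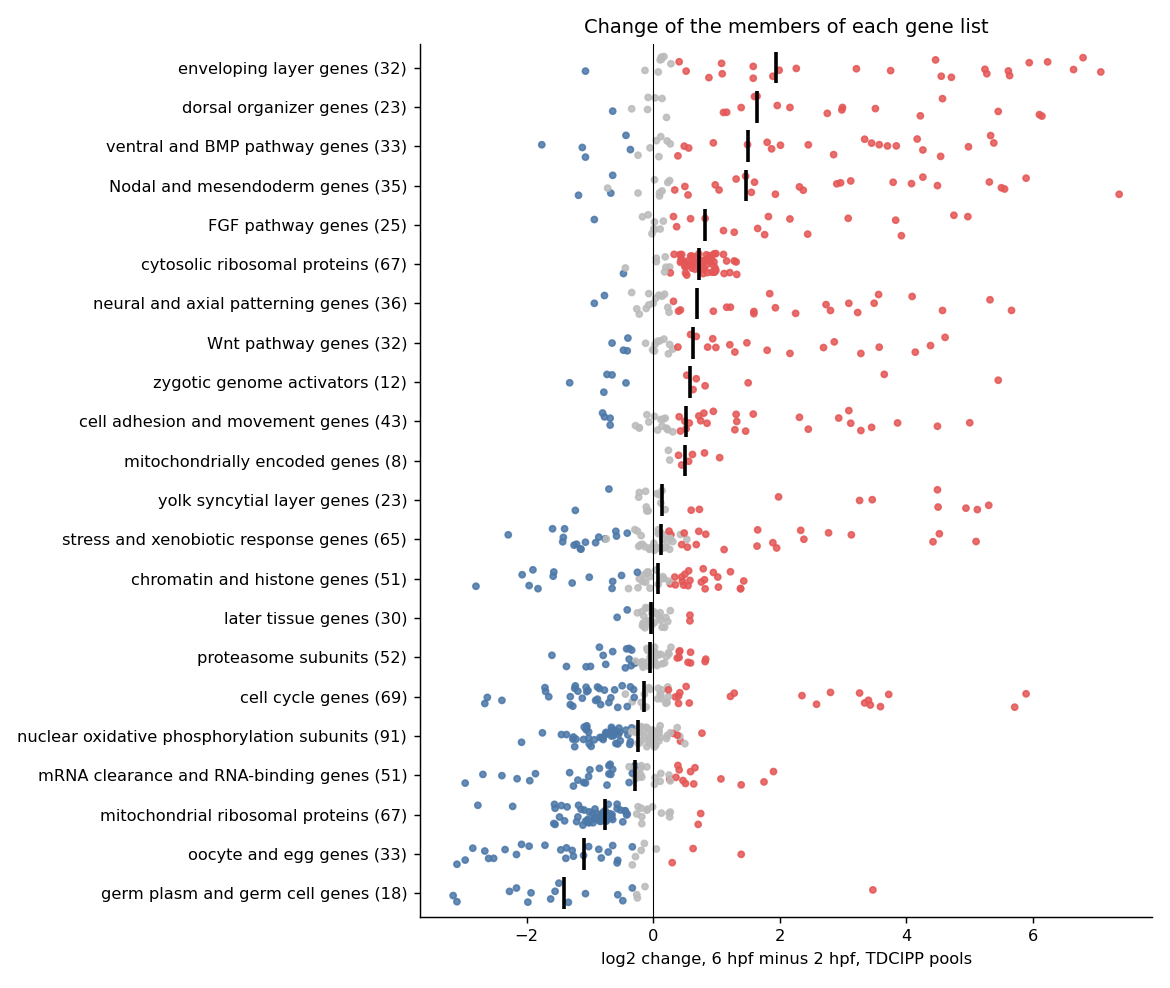
Log2 change, 6 hpf minus 2 hpf in TDCIPP pools, of each member (points) of the 22 gene lists, with the number of measured members and the median (black line). Red and blue points rose or fell at an adjusted p under 0.05, and grey points did not pass. Medians run from -1.41 for germ plasm genes to 1.94 for enveloping layer genes.

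The yolk syncytial layer list was divided. Of 23 genes, 10 rose and 2 fell, and 11 did not pass. Mxtx2, a homeobox factor that specifies this layer, rose from 4.31, 4.31 and 4.79 to 9.68, 9.75 and 9.88 (5.30), and mxtx1 rose by 5.12. Genes of lipoprotein assembly rose with them, apoeb from 5.39, 5.38 and 5.85 to 10.40, 10.59 and 10.46, mttp by 4.50 and the nuclear receptor gene hnf4a by 3.46. The endocytic adaptor dab2 fell by 1.23, and its signal was already 11.35, 11.37 and 11.31 at 2 hpf. Endocytic receptor genes of later absorptive tissue, cubn (0.14) and lrp2a (-0.08), did not pass. The median of this list was 0.14, and 0 with arrays centred on their medians or quantile-normalized once more.

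Neural and axial patterning genes rose in 21 of 36 cases and fell in 2 (median 0.69). Sox11a rose from 4.61, 4.71 and 5.16 to 10.43, 10.37 and 10.66, a 50.4-fold change. The zinc finger gene zic2b rose by 5.32, irx7 by 4.57 and her5, a midbrain gene, by 4.09. The clock genes her1 and her7 had risen by 2.80 and 1.84. The anterior gene otx2b had low, overlapping signals of 3.73, 3.28 and 3.68 at 2 hpf and 3.54, 3.17 and 2.95 at 6 hpf (adjusted p = 0.188). The homeobox gene gbx2 and geminin (gmnn) fell by 0.93 and 0.77, and fezf2, of the forebrain, changed least.

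Genes of adhesion and cell movement, which accompany gastrulation, rose in 25 of 43 cases and fell in 4 (median 0.52). Has2, a hyaluronan synthase, rose from 4.26, 4.09 and 4.58 to 9.38, 9.44 and 9.12, a 32.0-fold change. The chemokine cxcl12a and its receptor cxcr4a rose by 3.86 and 4.49. Prickle1b, of planar polarity, rose by 3.45, and the ephrin ligand gene efnb1 by 3.28. The falls were of ephb2b (-0.80), pdgfra (-0.77), rock2a (-0.68) and itgb5 (-0.68). Of 30 genes of tissues that form later, 2 rose and 2 fell, none of them 2-fold, with a median of -0.04. These were elavl3 of neurons (0.58, and 0.11 with adjusted p = 0.55 in its other cluster), sox9a of cartilage (0.58), neurog1 of neurons (-0.41) and prss1 of pancreas (-0.57).

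Of 69 cell cycle genes, 20 were higher (29.0%) and 31 lower (44.9%), against 15.0% and 29.9% of all named genes (median -0.15). The G1 cyclin gene ccnd1 rose from 5.65, 5.09 and 5.20 to 11.21, 11.18 and 11.20, a 59.1-fold change (adjusted p = 1.14e-12), and its other cluster by 2.09. Ccne2 rose from 4.50, 4.53 and 4.36 to 10.09, 10.30 and 10.13 (5.71), whereas ccne1, high at both times, rose by 0.42. Cyclin D2a (ccnd2a) fell by 1.12. The CDK inhibitor cdkn1a rose by 2.80, cdkn1ca by 2.58, and gadd45ba, of growth arrest, by 3.72. Replication helicase genes mcm6 and mcm3 rose by 3.59 and 3.26, while mcm4 (0.13) did not pass. Falls were led by slbp2, by pkmyt1, a kinase that restrains CDK1 (-2.62), and by ticrr, of origin firing (-2.39). The checkpoint kinase genes chek1 and atr fell by 1.70 and 1.65, the mitotic kinases aurkb and plk1 by 1.31 and 1.23, and cdk1 by 1.31.

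Of 51 chromatin and histone genes, 21 were higher (41.2%) and 13 lower (25.5%), against 15.0% and 29.9% of all named genes, and their median of 0.08 changed sign (-0.06) with arrays centred on their medians. The histone chaperone gene asf1bb went from 10.53, 10.55 and 10.38 to 7.57, 7.86 and 7.62 (-2.80, adjusted p = 1.35e-10), and asf1ba fell by 1.57. Dnmt1, the maintenance DNA methyltransferase, went from 11.10, 10.97 and 11.05 to 8.93, 9.24 and 8.75 and fell by 2.07. The de novo methyltransferases differed: dnmt3bb.3 fell by 1.90, and by 0.91 and 0.88 in its other clusters, while dnmt3ba rose by 1.38 and dnmt3bb.2 by 0.79. Their relatives dnmt3aa (-0.09), dnmt3ab (-0.22) and dnmt3bb.1 (-0.39) did not pass. The lamin genes lmnb2 and lmna rose by 1.43 and 1.38, and the histone variant gene h2az2b by 1.22.

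Genes of the cytosolic and the mitochondrial ribosome went in opposite directions. Of 67 cytosolic ribosomal protein genes, 59 rose and 1 fell (median 0.72), and of 67 mitochondrial ribosomal protein genes, 53 fell and 2 rose (median -0.76). The cytosolic rises reached 2-fold in 7 genes (5 to 14 under the other scalings, and 18 in DMSO pools) and were largest for rpl30, from 7.84, 7.93 and 7.96 to 9.23, 9.20 and 9.24 (1.32, adjusted p = 7.47e-08). The member that fell, rpl7l1 (-0.47), is a ribosomal protein-like gene. The largest mitochondrial fall was that of mrpl14, from 8.80, 8.88 and 8.73 to 5.99, 6.43 and 5.67 (-2.77), and mrpl48 fell by 2.22. Mrps25 (0.75) and mrpl32 (0.71) rose. Under each of the 3 other scalings, 55 to 60 of the cytosolic genes rose and 51 to 57 of the mitochondrial genes fell. Whether probes of 1 ribosomal protein gene also read another was not checked.

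Respiratory chain subunits are encoded in the nucleus and in the mitochondrion. Of 91 nuclear genes, 43 fell and 4 rose (median -0.24), led by atp5pd, from 7.69, 7.85 and 7.78 to 5.88, 5.75 and 5.45 (-2.08), and sdhc (-1.75). Cox7c rose by 0.77. Of 8 mitochondrially encoded genes, 6 rose and none fell (median 0.51). ND3 rose from 9.38, 9.63 and 9.90 to 10.87, 10.50 and 10.71 (1.05, adjusted p = 0.000183) and ND6 by 0.81, while COX1 (0.26, adjusted p = 0.0572) and ND5 (0.24, adjusted p = 0.0877) did not pass. The number that rose was 4 of 8 with arrays centred on their medians, 7 with the 75th percentile and 3 with quantile normalization once more. Of 52 proteasome genes, 9 were higher (17.3%) and 15 lower (28.8%), close to the 15.0% and 29.9% of all named genes, with a median of -0.05, and psmd10 fell most (-1.60).

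Stress and xenobiotic response genes are of interest in exposed embryos. Of 65, 20 rose (30.8%) and 16 fell (24.6%), against 15.0% and 29.9% of all named genes (median 0.12, and -0.02 with arrays centred on their medians). The small heat shock protein gene hspb1 rose from 7.65, 7.59 and 7.53 to 12.71, 12.64 and 12.72, a 34.3-fold change. Cyp2aa8, a cytochrome P450, rose by 4.52 and duox, a hydrogen peroxide-producing oxidase, by 4.42. The amino acid response factors atf4b and atf4a rose by 3.13 and 2.38. Of genes for antioxidant enzymes, cat fell from 11.75, 11.65 and 11.43 to 10.24, 10.33 and 9.99 (-1.43) and sod1 fell by 1.42. The chaperones of the endoplasmic reticulum hspa5 and hsp90b1 fell by 1.15 and 1.25, and mdm4, a p53 inhibitor, by 2.29. In DMSO pools, hspb1 rose by 4.96, cyp2aa8 by 3.93, duox by 3.60 and atf4b by 3.21, and cat changed by -1.61 and hspa5 by -1.24. None of these differences from the TDCIPP pools passed the test, and that of duox had an unadjusted p of 0.000209 (adjusted p = 0.608, and 0.0812 in a fit of single arrays with the pool as random block).

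A few clusters were near the top of the signal range at both times, and since signals of different clusters depend on their probes, their order is not one of abundance. The signal of zgc:158463 was 14.14, 14.18 and 14.19 at 2 hpf and 14.19, 14.18 and 14.18 at 6 hpf (adjusted p = 0.929). Its other clusters rose by 4.90 and 0.51, so that no single change holds for this gene. COX1 and the histone-family genes zgc:173552 (0.22, adjusted p = 0.0587) and hist1h2a5 (0.18, adjusted p = 0.194) did not pass either. The 5 other clusters of zgc:173552 all rose, by 0.45 to 1.36, so that here too no single change holds. Uchl1, a deubiquitinase gene, was in this group at 2 hpf only and fell by 1.35, from 12.54, 12.47 and 12.47 to 10.99, 11.36 and 11.08, and si:ch73-90k17.1 fell by 2.38. Hspb1 and vangl2 were in it at 6 hpf only. The largest rise of any cluster was in a pair without a gene symbol that share identical values, from 2.09, 2.27 and 2.05 to 13.07, 13.23 and 13.23 (11.04, and 10.45 in DMSO pools).

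The same passage of time was measured in vehicle, where 1082 named genes rose 2-fold (5.61%) and 2347 fell (12.2%). Of the 3447 named genes that changed 2-fold in TDCIPP pools, 3446 changed in the same direction in DMSO pools, and 3427 of these passed the test there too. None moved past the threshold in the opposite direction. The difference between both changes was tested for each cluster. It passed for 0 of 61240 clusters (limma, smallest adjusted p = 0.14), with 2645 (4.32%) at an unadjusted p under 0.05. Such a difference is less precise than either change (for bmpr1aa, SE 0.12 against 0.08 for the TDCIPP change). The study compared TDCIPP with vehicle directly at 6 hpf and reported transcripts that passed. It listed bmpr1aa among those at a false discovery rate under 0.1, by one-way analysis of variance with duplicate arrays of each RNA sample. That contrast, test and threshold differ from those used here, where the count at an adjusted p under 0.1 was also 0. The count of 0 therefore does not show that the treatments were alike. In a fit of all single arrays with the pool as random block, 4 clusters passed. They were foxi1, efnb1 and a cluster without a symbol (adjusted p = 0.0432 each), and another without a symbol (adjusted p = 0.000806). The last had a log2 change of 0.27 with TDCIPP and 2.17 with DMSO. That fit used a shared correlation of 0.122 between arrays of a pool, so these arrays counted almost as separate replicates. Over named genes the difference was 0.113 log2 units in absolute size at the median. Both sets were normalized together. The study reports that TDCIPP delayed or arrested epiboly, the spreading of cells over the yolk, in most embryos at a somewhat lower concentration. The authors describe toxicity at the concentration used for the arrays as similar. Those embryos were exposed apart from the array pools, whose own stage is not given. The TDCIPP pools at 6 hpf may thus have been behind the DMSO pools in stage, and effects of stage and of exposure cannot be told apart.

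**Figure D5:**
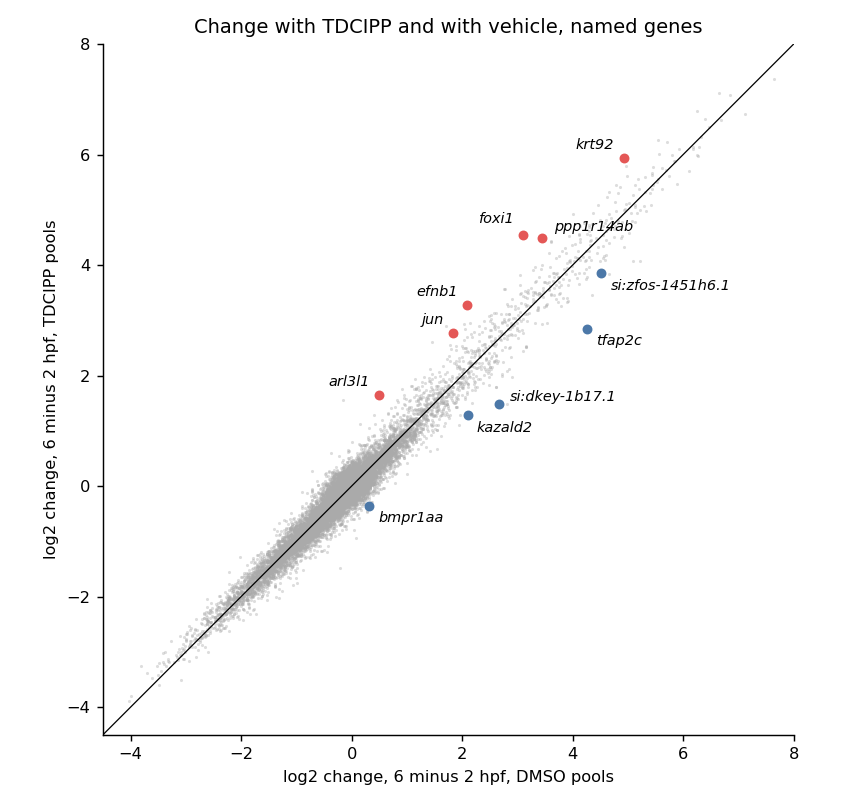
Log2 change, 6 hpf minus 2 hpf, of each named gene in DMSO pools (x axis) and in TDCIPP pools (y axis), with the line of equal change. Coloured genes have the smallest unadjusted p for the difference in each direction, with foxi1 added, and no difference passed the adjusted threshold. For example, tfap2c lies at 4.26 and 2.85.

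Genes nearest to a difference are named with their values, and none of them passed in the fit of pool means. A larger rise with TDCIPP was measured for arl3l1 (1.65 against 0.49, adjusted p of the difference 0.291), ppp1r14ab (4.49 against 3.44) and krt92 (5.94 against 4.92). The krt92 pools overlapped at 6 hpf, at 9.45, 9.88 and 9.79 with TDCIPP and 9.50, 9.66 and 9.45 with DMSO. Its mean at 2 hpf was lower with TDCIPP (3.77 against 4.62), so the larger rise arose mostly there. Jun, an immediate early factor, rose by 2.77 against 1.84 and efnb1 by 3.28 against 2.08. On the other side, tfap2c, an AP-2 factor of ectoderm, rose by 2.85 against 4.26 (adjusted p of the difference 0.575), with 6 hpf signals of 6.32, 6.73 and 6.45 in TDCIPP and 8.43, 8.33 and 7.58 in DMSO pools, which did not overlap. Smaller rises were also measured for si:dkey-1b17.1 (1.48 against 2.66), kazald2 (1.28 against 2.1) and si:zfos-1451h6.1 (3.85 against 4.52). Means at 2 hpf with TDCIPP and DMSO also differed for jun (3.99 and 4.47) and si:dkey-1b17.1 (3.60 and 2.97). The same held, by less, for efnb1 (4.78 and 5.08) and ppp1r14ab (3.73 and 4.04).

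Of the lists, that of ventral and BMP pathway genes held the most members with an unadjusted p under 0.05 for this difference, 10 of 33 against 707 of 19298 named genes (3.66%), and none passed after adjustment in the fit of pool means (foxi1 passed in that with the random block). The list was chosen with earlier results of these same data on this pathway known. The study had already reported bambia and bmpr1aa as affected by TDCIPP on these arrays. Both genes are counted in the 10. Comparisons of this list with all named genes therefore rest partly on results that were known when it was chosen. No conclusion on this pathway was drawn from them. The list members szl, ved and ventx were matched to no named cluster and are not among the 33. The study names szl as the transcript most affected by TDCIPP. The counts and medians of this list therefore leave that gene out. Rises were smaller with TDCIPP in 6 of the 10 (bmp2b, bmp4, bmp7a, vent, bambia and tfap2c) and larger in 3 (foxi1, gata3 and tfap2a), and bmpr1aa changed by -0.36 against 0.32. Over the whole list, the median was 1.49 with TDCIPP and 2.19 with DMSO. The change was lower with TDCIPP in 24 of 33 members, against 9077 of 19298 named genes. A lean of this kind was not particular to this list. The change was lower in 55 of 67 cytosolic ribosomal protein genes. It was higher in 25 of 32 enveloping layer genes and in 46 of 65 stress and xenobiotic response genes. Bmp4 had 6 hpf signals of 5.65, 6.32 and 6.04 with TDCIPP and 7.27, 7.98 and 6.66 with DMSO, and foxi1 of 10.22, 9.50 and 10.50 against 8.45, 8.97 and 8.79. The groups did not overlap for either gene. For oocyte and egg genes, no member of 33 reached an unadjusted p under 0.05, and the medians were -1.10 with TDCIPP and -1.11 with DMSO. Germ plasm genes had 0 of 18 and medians of -1.41 and -1.37, and enveloping layer genes 4 of 32 and medians of 1.94 and 1.65. With a share of 3.66% over all named genes, few or no members are awaited in lists as short as the oocyte and germ plasm lists. Their counts of 0 therefore do not show that these genes were unaffected.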

How the data were processed

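Gene expression was measured in 12 pools of 25 embryos on 24 one-colour Zebrafish Gene 1.0 ST arrays. The authors made the deposited log2 signals, 1 per transcript cluster, in Expression Console by RMA, a method that subtracts background, gives all arrays 1 distribution by quantile normalization and combines probes. A global rise or loss of RNA is therefore not seen. The software's version is not given in the sources used here.

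Of 75212 rows, 13972 without a symbol, whose ID lies below the first one the study lists, were left out. Of 61240 clusters tested, 20856 carry 1 symbol in the array annotation, 805 several (tested, not named) and 39579 none, and 20323 were matched to a current gene name. Counts of clusters include 1644 that share all values with another. Where a gene had several clusters (1377 of 19298), that of highest mean signal over the pools stood for it. The 2 arrays of a pool were averaged, and the 12 pools of 4 groups were fitted by lmFit and eBayes of limma 3.58.1 (R 4.3.3), with two-sided p-values and Benjamini-Hochberg adjustment. The same fit was also run on simulated data in which few clusters changed, and no result here rests on that run. Contrasts were 6 minus 2 hpf in TDCIPP, in DMSO, and their difference. Replicate numbers in the labels were not taken as pairs. The study describes its samples as independent replicates, and p-values measure the spread between pools.

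The 22 gene lists and the comparison itself were chosen with earlier results of these data known, and lists are described by counts and medians with no test. Named are the 12 genes per direction with the largest called change and separate pools, the 4 largest called changes and the least change of each list, the 5 genes per direction with the smallest p for the difference from DMSO, and the 6 with the highest signal at each time. Other members were named after their values were seen. Alternatives changed the samples, scaling, filter, symbol rule, threshold, replicate structure and test. No sequence is shown. Figures were drawn with matplotlib 3.10.9.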

Additional observations from a re-analysis of the deposited data

Results flagged for a closer look

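The BMP type I receptor gene bmpr1aa is given here because its change had opposite directions in the 2 treatments. Its log2 signals in TDCIPP pools were 6.77, 6.86 and 6.85 at 2 hpf and 6.42, 6.54 and 6.44 at 6 hpf, and it fell by 0.36 (adjusted p = 0.00327), while it rose by 0.32 in DMSO pools (adjusted p = 0.00677). Signals in DMSO pools were 6.65, 6.64 and 6.72 at 2 hpf and 7.06, 6.98 and 6.94 at 6 hpf. The treatments thus did not overlap at 2 hpf either, where TDCIPP pools were slightly higher. The difference between the changes was -0.68 (SE 0.12), with an adjusted p of 0.375 (limma, over all clusters), so that it did not pass the test. The other cluster of the gene changed by -0.20 with TDCIPP (adjusted p = 0.285) and by 0.09 with DMSO. With the second array of each pool alone, the change in TDCIPP pools was -0.21 (adjusted p = 0.273). Groups of 3 pools are too small for a check of single pools that lie far from the others.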

How the results depend on the processing

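Of 3132 values of 143 single-gene results under the alternatives, 0 reversed, 10 lost the threshold and 23 gained it. Clusters with 1 symbol only, 20856 in number, gave 3285 higher and 6268 lower clusters, 1179 and 2500 of them 2-fold. They leaned downward, like the named genes. A mean signal of at least 5 gave 7015 higher clusters and kept 23 of the 24 genes with the largest changes. All rows of the table gave 7098 clusters higher 2-fold, and 3254 of these were among the rows otherwise left out. A random block for the pool, over single arrays, gave 4 clusters that differed between TDCIPP and DMSO, and leaving out the second TDCIPP pool at 6 hpf gave 1 (no symbol, -2.44, adjusted p = 0.0134). The cause of these was not tested. Leaving out 1 of the 6 TDCIPP pools at a time (no DMSO pool was left out) gave 9158 to 9731 clusters higher and 9748 to 10137 lower, 3806 to 3906 and 4043 to 4384 of them 2-fold, 0 to 1 that differed from DMSO, 13 to 15 of 22 lists with a median above 0, and 24 of the 24 genes. The replicate block gave 10311 higher and 10612 lower clusters, and 0 that differed from DMSO. Deviations of pools with the same number correlated at -0.025, 0.011 and 0.014 in TDCIPP and at -0.01, 0.074 and 0.098 in DMSO pools. These values are small, and the numbers were not read as pairs. Of 484 list medians, 33 moved by more than the spread of pools, 11 of them with arrays centred on their medians and 11 with a mean signal of at least 5, where low genes leave the lists. A low signal at 2 hpf holds array background, so the fold of genes that start low is uncertain.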

Other observations

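In the deposited scaling, clusters without a gene symbol leaned upward. Of 39579, 7386 were higher at 6 hpf (18.7%) and 4446 lower (11.2%), with 2610 and 1619 past 2-fold and a median change of 0.07. Centring arrays on their medians moved changes by -0.14, which is larger in size than this median, so the direction of the lean is uncertain. The 13972 rows that were not tested, which carry no symbol and whose content is not given in the sources used here, leaned upward as well. Of these, 3254 (23.3%) were at least 2-fold higher and 11 lower in TDCIPP pools, against 3694 (26.4%) and 8 in DMSO pools, and 2905 were higher in both. Their median signal in single pools was 2.55 to 2.61 at 2 hpf and 3.16 to 3.18 at 6 hpf with TDCIPP, and 3.22 to 3.24 at 6 hpf with DMSO.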
